A study of Mus musculus with 4 samples.

Results

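The genes of MHC class II antigen presentation were read in mouse abdominal aorta: the antigen-presenting chains H2-Aa, H2-Ab1 and H2-Eb1, the peptide exchange factors H2-DMa and H2-DMb1, their inhibitors H2-Oa and H2-Ob, the invariant chain Cd74 and the transactivator Ciita. All probes that carry one of these names and are not controls were taken, which gave 9 genes of 37074 names on the array and 18 probes of 56605. The set was chosen because these genes differed between both genotypes in the same arrays, so its values in that comparison are a description and carry no test. Every one of the 9 genes kept at least 1 probe that was well above background on 2 or more of the 4 arrays, and 14 of the 18 probes did so. H2-Oa passed only through the knockout-labelled arrays.

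Male mice of 12 weeks, wild type or SR-A1-/-, were sampled 4 weeks after CaPO4 had been used to injure the abdominal aorta, with 2 arrays for each genotype and, per the design text, 2 independent experiments. SR-A1 is a scavenger receptor of macrophages encoded by Msr1. Both groups carry the CaPO4 injury. The labels name neither the strain, the Msr1 allele nor whether an array stands for 1 animal, so errors rest only on spread between these samples. RNA came from whole tissue, in which fewer cells of a type and less RNA per cell cannot be told apart.

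Class II molecules are dimers of an alpha and a beta chain that show peptides from ingested material to CD4+ T cells. The invariant chain, Cd74, escorts new dimers to the endosome, H2-DM exchanges its last fragment for a peptide, and H2-O restrains H2-DM. Transcription of most of these genes is driven by CIITA, a coactivator that binds no DNA itself. It docks on factors assembled at an upstream module of X and Y boxes. CIITA is made constitutively in dendritic cells and B cells and induced by interferon gamma in macrophages and other cells.

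The upstream module is shown first, for those of these genes in which its letters were found, since CIITA acts through it. RefSeq promoter sequences (build GRCm38.p6) were matched for 6 of the 9 genes. The stretches below end at the base before the transcription start, and capitals mark GCAAC, letters of the X box, and TGATTGG, letters of the Y box.
H2-Aa, chr17:34287824-34287944, minus strand: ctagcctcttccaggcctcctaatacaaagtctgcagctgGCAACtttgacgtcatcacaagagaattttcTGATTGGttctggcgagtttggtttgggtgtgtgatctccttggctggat
H2-Eb1, chr17:34305736-34305866, plus strand: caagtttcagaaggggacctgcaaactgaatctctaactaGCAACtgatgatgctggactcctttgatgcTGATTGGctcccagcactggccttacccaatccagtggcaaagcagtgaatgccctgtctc
H2-Oa, chr17:34092263-34092378, plus strand: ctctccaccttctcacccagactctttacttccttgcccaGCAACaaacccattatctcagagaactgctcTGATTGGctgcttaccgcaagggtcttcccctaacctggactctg
H2-Ob, chr17:34238778-34238904, plus strand: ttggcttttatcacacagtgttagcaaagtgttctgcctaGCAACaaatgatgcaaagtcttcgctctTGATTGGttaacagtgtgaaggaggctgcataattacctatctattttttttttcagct
The gap between both motifs was 26 bases in H2-Aa and H2-Oa, 25 in H2-Eb1 and 23 in H2-Ob, and GCAAC began 76 to 91 bases before the start. The letters were chosen after these promoters had been read, and neither motif overlaps the other. On either strand of the 250 bases before the start, GCAAC occurred in 29.9% of 32851 promoters and TGATTGG in 7.23%. Both motifs in this order, at a gap of 15 to 35 bases, occurred in 60 of them, or 0.183%, and H2-Eb2, a further class II beta gene of the same region, was another of these. The windows of H2-DMa and H2-DMb1 did not hold the pair, which says only that these letters are not there. H2-Ab1, Cd74 and Ciita are named only.

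Each array was scaled to its own 75th percentile, and a level below is log2 of the signal over that percentile. The percentile was low on the arrays labelled wild type 1 and knockout 2 (132 and 133) and high on those labelled wild type 2 and knockout 1 (220 and 245), so each genotype has 1 array of each signal level, and all 4 came from 1 slide and 1 scan time. Between 57.6% and 62.6% of probes were well above background. Msr1 went against the labels. Its probe at base 3231 of the transcript read -5.30 and -2.10 on the wild-type-labelled arrays and -1.26 and -2.09 on the knockout-labelled pair, and the probe at base 624 read -6.40 and -2.12 against -1.50 and -1.38. Only the array labelled wild type 1 was not well above background at either probe. Without the allele it is not known whether these bases lie in the deleted stretch, and directions below rest on the labels alone. In limma 0 of 22497 genes passed an adjusted p of 0.05 in either direction (0%), with 1416 at an unadjusted p under 0.05, and 8, 7, 21, 8, 8 and 5 passed under quantile scaling, median scaling, normexp background correction, no dimness filter, the deposited values and an intensity trend. Without the array labelled wild type 1 or 2 the count was 260 or 371, with the lone array of the group assumed to vary like the other group.

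The class II genes as a group read higher on the knockout-labelled arrays. In 8 of the 9 genes both of those arrays lay above both wild-type-labelled arrays, where 16.1% of all genes did so, and in the same 8 the difference was at least 1, where 3.96% of all genes met both conditions. The median difference over the 9 was 2.02 in log2, beside -0.0057 over all genes tested. This contrast chose the genes, and nothing is read from those shares. The only gene whose groups overlapped was H2-Ob. Differences below are knockout minus wild type by the labels, ± the limma standard error, with 2 arrays per group. That error is drawn toward a spread common to all genes tested, so it is not a gene's own replicate spread.

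Ciita, the transactivator of class II genes, was read by 4 probes. Its brightest, at base 4390 of NM_001302619 (mm9 chr16:10526458-10526517), stood at -0.37 and -0.50 on the wild-type-labelled arrays and at 1.59 and 1.58 on the knockout-labelled pair. Both pairs were tight, with 0.13 and less than 0.001 between replicates, and the groups did not overlap. The difference was 2.02 ± 0.27, or 4.06-fold. A dim probe in the same transcript, at base 3836, read -3.96 and -4.36 against -2.62 and -2.14, a difference of 1.78. Another, designed on the transcript AK163054, read -3.75 and -4.27 against -2.65 and -2.29, a difference of 1.54. Higher readings on both knockout-labelled arrays were thus found at 3 of the 4 probes, and the fourth, on AK155311, was not well above background on any array.

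Cd74, the invariant chain that fills the peptide groove during transport, was as even as Ciita. Its 1 probe, at base 1183 of NM_001042605 (mm9 chr18:60972075-60972132), read 3.62 and 3.70 on the wild-type-labelled arrays and 5.77 and 5.65 on the knockout-labelled pair. The difference of 2.05 ± 0.27, or 4.15-fold, came to 2.03 within the low-signal arrays and 2.08 within the high-signal ones. Leaving out any 1 array gave between 1.99 and 2.11.

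**Figure D1:**
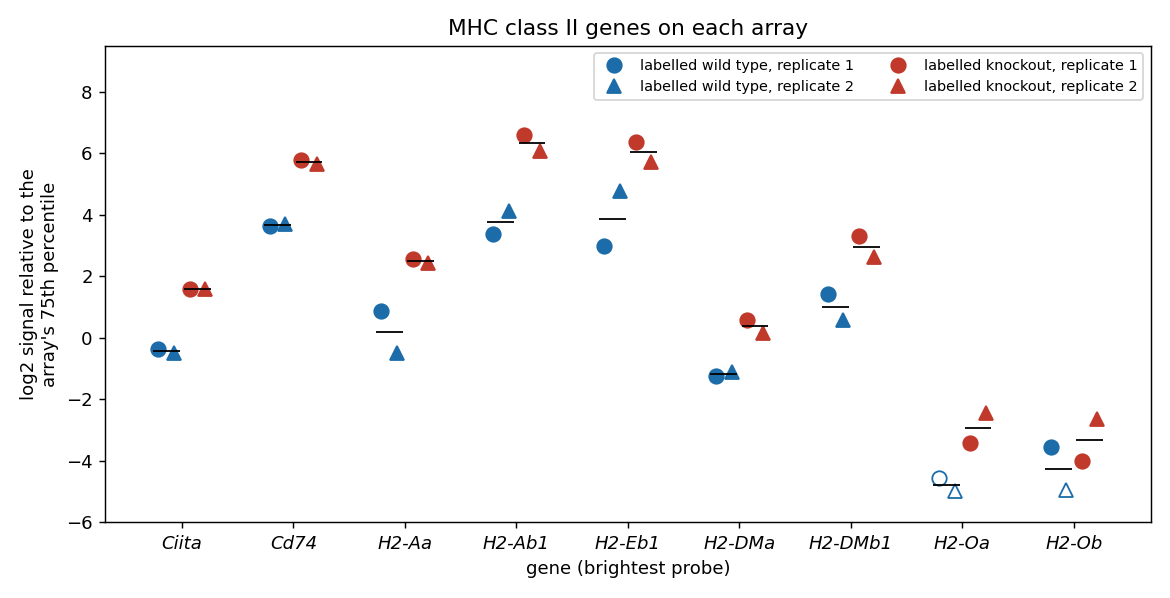
Levels of the 9 class II genes on each of the 4 arrays, as log2 signal relative to the array's 75th percentile, with circles for replicate 1, triangles for replicate 2, blue for wild-type-labelled arrays, red for knockout-labelled arrays, open symbols where the probe was not well above background and bars at the group means. Red symbols lie above both blue ones for every gene except H2-Ob, and both pairs of Ciita and of Cd74 lie close together. Heights are comparable within a gene only, since each gene has its own probe.

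The antigen-presenting chains differed by 2.18 to 2.57, with wider pairs. H2-Ab1, the beta chain of the I-A dimer, had 4 probes well above background on all arrays. The probe at base 1125 of NM_207105 (mm9 chr17:34406296-34406355) read 3.38 and 4.13 on the wild-type-labelled arrays and 6.60 and 6.07 on the knockout-labelled pair. Neither pair came near the other, and the difference was 2.57 ± 0.40, or 5.95-fold. The probe at base 528 (mm9 chr17:34404357-34404416) gave the steadiest reading, at 0.16 and 0.098 against 2.90 and 2.96. It differed by 2.80, the one at base 888 by 1.95 and the one at base 1134 by 2.36, so all 4 probes had the same direction. Those at bases 1125 and 1134 overlap by 51 bases, with 1 mismatch (T51C, counted from 1 at the 5′ end of the first probe), and are not independent readings. The sequence of the probe at base 528 is given with those of H2-Aa and H2-Ea-ps, as deposited with the arrays, because these are the I-A readings least like each other in spread and the E alpha reading that follows.
H2-Ab1, base 528: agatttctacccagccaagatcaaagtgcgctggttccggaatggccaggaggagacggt
H2-Aa, base 227: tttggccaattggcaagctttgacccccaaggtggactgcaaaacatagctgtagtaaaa
H2-Ea-ps, base 166: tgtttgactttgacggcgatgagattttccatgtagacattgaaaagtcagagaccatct

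**Figure D2:**
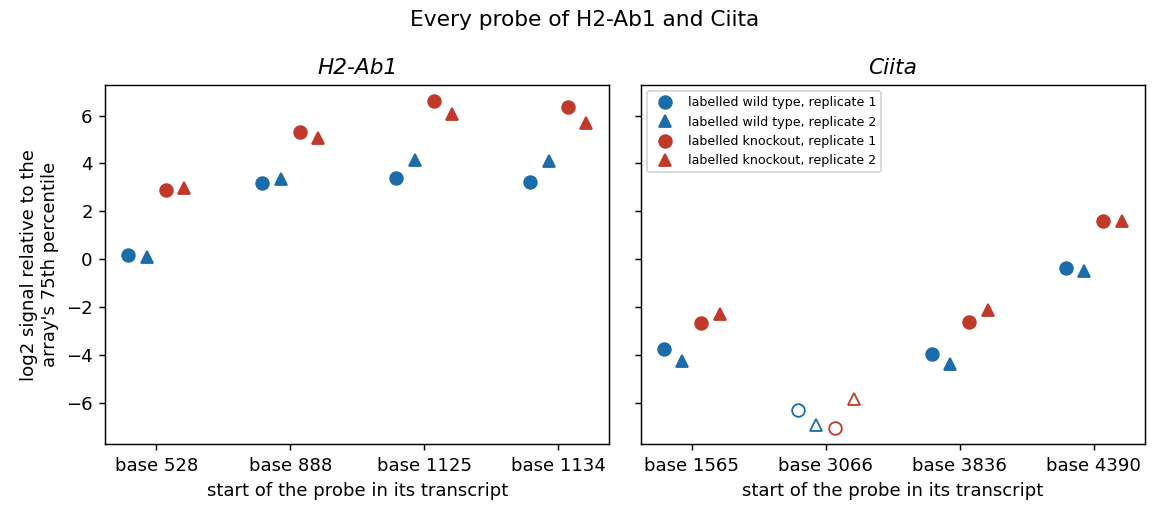
Every probe of H2-Ab1 and Ciita, placed by the base of its own transcript at which it starts, with the log2 signal relative to the array's 75th percentile on each array; colours and symbols are as for the 9 genes, and open symbols were not well above background. The red symbols lie above the blue ones at all 4 H2-Ab1 probes and at the 3 Ciita probes that were above background, with differences of 1.54 to 2.80.

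H2-Aa, the alpha partner of H2-Ab1, was read by 1 probe, at base 227 of NM_010378 (mm9 chr17:34421285-34421344). It stood at 0.86 and -0.48 on the wild-type-labelled arrays and at 2.56 and 2.44 on the knockout-labelled pair. The wild-type-labelled arrays lay 1.34 apart and the knockout-labelled pair 0.12, and the groups did not overlap. The difference was 2.31 ± 0.51, or 4.97-fold. The arrays of low signal level gave 1.58 and those of high level 3.05.

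H2-Eb1, the beta chain of the I-E dimer, showed the opposite order within the wild type label. Its 1 probe, at base 1124 of NM_010382 (mm9 chr17:34453075-34453134), read 2.98 and 4.76 on the wild-type-labelled arrays and 6.38 and 5.72 on the knockout-labelled pair. The difference was 2.18 ± 0.66, or 4.53-fold, with 2.74 at low signal level and 1.62 at high level. Without the array labelled wild type 1 it was 1.29. On that array the brightest H2-Ab1 probe and H2-Eb1 stood lower than on wild type 2, by 0.75 and 1.78, while H2-Aa stood higher. For H2-Ab1 this depended on the probe. The probe at base 528 read 0.16 on wild type 1 and 0.098 on wild type 2. The probe at base 888 read 3.16 and 3.33 on these arrays, and the probe at base 1134 read 3.22 and 4.10.

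The alpha partner of H2-Eb1 differed from all of these. It is a pseudogene in mouse strains of the b haplotype, which lack the start of the gene. The probe of H2-Ea-ps, at base 166 of NM_010381 (mm9 chr17:34481469-34481528), read -2.48 on the array labelled wild type 1 and -7.18, -7.20 and -6.63 on wild type 2, knockout 1 and knockout 2. Only the first of these was well above background, so the gene was not tested. H2-Eb2 and H2-DMb2, further beta genes of the region, were not well above background on any array.

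The peptide exchange factor was higher in both of its chains. H2-DMa was read at base 921 of NM_010386 (probe spanning mm9 chr17:34274300-34274863), with -1.25 and -1.13 on the wild-type-labelled arrays and 0.59 and 0.17 on the knockout-labelled pair. The groups did not overlap, and the difference was 1.57 ± 0.30, or 2.96-fold. With normexp background correction it was 1.03. H2-DMb1 at base 1218 of NM_010387 (mm9 chr17:34297109-34297168) read 1.42 and 0.60 against 3.30 and 2.62, a difference of 1.95 ± 0.43, or 3.87-fold. At low signal level the difference was 1.20 and at high level 2.70. H2-DMb1 and H2-DMb2 are close copies, and a probe can read both. A further H2-DMb1 probe, designed on ENSMUST00000114232, was not well above background on any array.

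The inhibitors of exchange, which are best known from B cells, lay close to background. The H2-Oa probe at base 902 of NM_008206 (mm9 chr17:34232033-34232092) was not well above background on either array labelled wild type, with -4.55 and -5.00, and read -3.42 and -2.46 on the knockout-labelled pair. With both wild-type-labelled readings raised to the lowest signal called above background on their array, the knockout-labelled pair was 3.21-fold higher. Some readings not called lie above that signal, so this is no lower bound. The fitted difference was 1.84 ± 0.43, and with normexp background correction it was 0.21. H2-Ob at base 778 of NM_010389 (probe spanning mm9 chr17:34380481-34380849) read -3.56 and -4.96 against -4.02 and -2.64 and was well above background on 3 of the 4 arrays. These groups overlapped, and the difference of 0.93 ± 0.68 was not larger than the spread between replicates. It was 0.23 without the array labelled wild type 2, 1.63 without wild type 1 and 0.14 with normexp background correction. Its 2 other probes were not well above background on any array.

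**Figure D3:**
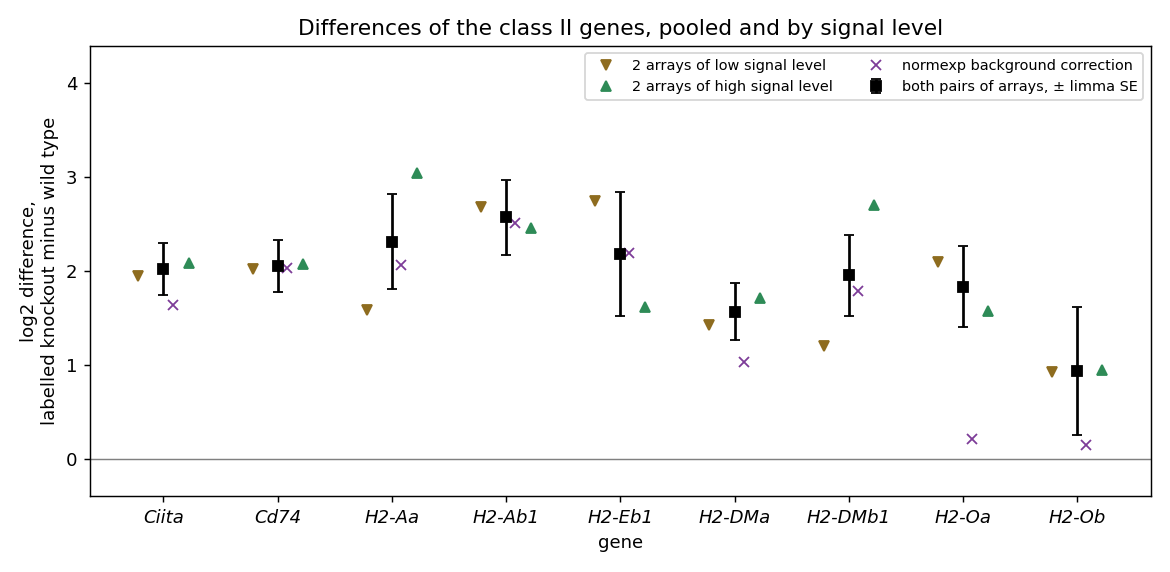
Difference of each class II gene, labelled knockout minus wild type in log2, with squares for all 4 arrays and bars of 1 limma standard error, triangles for the arrays of low and of high signal level taken apart, and crosses for normexp background correction. All points lie above 0. Ciita, Cd74, H2-Ab1 and H2-Ob differ little between signal levels, H2-Aa, H2-DMb1 and H2-Eb1 differ most, and the crosses of H2-Oa and H2-Ob lie at 0.21 and 0.14.

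Within the class II region of chromosome 17 the genes that lie between the members gave smaller differences. The members were chosen from this contrast, so that gap was largely set by the choice and nothing is read from it. From the H2-Oa probe to the H2-Ea-ps probe (mm9 chr17:34232033-34481528), 13 genes were tested, of which 7 are members. The members had a median difference of 1.95 and a range of 0.93 to 2.57. The 6 others, which include an unnamed probe, had a median of 0.39 and a range of -0.20 to 0.91. Tap1, a subunit of the peptide pump that serves MHC class I, lies among the class II genes and read 0.049 and 0.0076 on the wild-type-labelled arrays and 1.27 and 0.61 on the knockout-labelled pair. Its difference of 0.91 ± 0.34 did not pass in limma (adjusted p = 0.778). It was the only one of the 6 with both knockout-labelled arrays above both of the others, near the 16.1% of all genes that did so. Psmb8 and Psmb9, catalytic subunits of the immunoproteasome, differed by 0.48 ± 0.37 and 0.31 ± 0.44, and the pump's other subunit, Tap2, by 0.058 ± 0.29. The chromatin reader gene Brd2 differed by -0.20 ± 0.31.

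**Figure D4:**
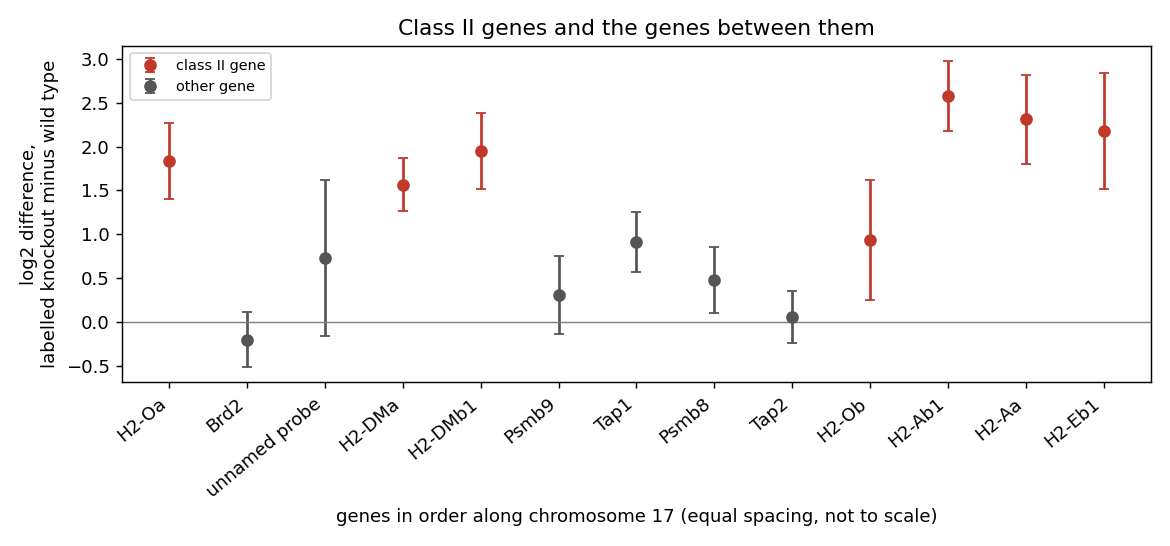
Differences of the 13 tested genes of the class II region, labelled knockout minus wild type in log2 with bars of 1 limma standard error, in their order along chromosome 17 at equal spacing. Class II genes (red) lie at 0.93 to 2.57 and the other genes (grey) at -0.20 to 0.91. The highest grey point, Tap1, stands just below the lowest red one, H2-Ob. The red genes were chosen from this contrast.

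The rest of the pathway was followed through 40 further genes, listed with earlier results of these arrays known, of which 36 were tested. Among the 36 are 6 neighbours of the class II region, such as Tap1 and Brd2, so the counts are not for the pathway alone. In limma 0 of the 36 passed in either direction, and 4 had an unadjusted p under 0.05. Both knockout-labelled arrays were above both of the others in 9 genes, beside 16.1% of all genes, and below them in 5, beside 13.7%. The median difference over the 36 was 0.089, and Tap1 is among both the 4 and the 9.

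The DNA-binding factors of the X and Y boxes stayed close to 0 at the brightest probe of each gene. RFX binds the X box and NF-Y the Y box, and all 7 of the factor genes listed were tested. Differences at these probes ran from -0.17 for Rfxank to 0.057 for Nfyb, with a median of -0.025. For Creb1 and Nfyb the result depended on the probe. Dimmer Creb1 probes at bases 1184, 1931 and 8359 of NM_009952 differed by 0.38, 0.45 and -0.051. A further dim Creb1 probe, designed on ENSMUST00000188855, differed by 0.84. Dimmer Nfyb probes at bases 158, 411 and 1905 of NM_010914 differed by 0.36, 0.24 and 0.16. Rfxank read 0.44 and 0.47 on the wild-type-labelled arrays and 0.36 and 0.22 on the knockout-labelled pair, and its difference was -0.17 ± 0.27. Nfyc and Creb1 differed by -0.11 ± 0.35 and -0.083 ± 0.30. None passed (adjusted p = 1.0 for each in limma).

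The interferon gamma signal, which induces Ciita in many cells, was followed through 7 tested genes. Ifng itself was not well above background on any array. Of the 7, 3 were higher and 3 lower on both knockout-labelled arrays, beside 16.1% and 13.7% of all genes. Jak1, a kinase bound to the receptor, read 2.83 and 2.57 against 3.44 and 3.58, a difference of 0.81 ± 0.29 (adjusted p = 0.740 in limma). The feedback inhibitor Socs1 differed by -0.52 ± 0.35.

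Enzymes that prepare class II peptides did not pass either. Ctss, the protease that trims the invariant chain, read 2.32 on the array labelled wild type 1 against 5.89 on wild type 2 and 5.02 and 4.55 on the knockout-labelled arrays. Its difference was 0.68 ± 1.18 with all arrays. Without wild type 2 it was 2.47 and passed (adjusted p = 0.0383 in limma), as the only pathway gene that did so in any of the alternatives tried. Without wild type 1 it was -1.10, and over all alternatives the adjusted p in limma ran from 0.0383 to 1. The thiol reductase gene Ifi30 differed by 0.38 ± 0.31 and the protease gene Lgmn by 0.28 ± 0.31, each with both knockout-labelled arrays higher.

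Among partners on the cell surface, each read by its brightest probe, Cd86 alone had groups that did not overlap and a difference of at least 1. Of all genes, 3.96% did so upward. CD86 gives T cells the second signal beside the class II peptide. It read -2.72 and -2.46 on the wild-type-labelled arrays and -0.32 and -1.08 on the knockout-labelled pair, a difference of 1.89 ± 0.37 (adjusted p = 0.368 in limma). With normexp background correction it was 0.88, and over the alternatives the adjusted p in limma ran from 0.105 to 0.931. The other costimulatory genes gave smaller differences, with Icosl at 1.13 ± 0.67, Cd40 at 0.50 ± 0.35 and Cd80 at 0.18 ± 0.36. Cd40 lay close to background and was well above it on 2 of the 4 arrays, those labelled wild type 2 and knockout 1. The groups of Icosl overlapped at its brightest probe. A dimmer Icosl probe, at base 363, read -2.88 and -4.00 against -2.46 and -2.37, without overlap and with a difference of 1.03. The ubiquitin ligase gene March8 differed by -0.94 ± 0.34 (adjusted p = 0.748 in limma). At a dimmer March8 probe, at base 4326, the difference was -0.33 and the groups overlapped. March1, a relative of March8 that removes class II from the surface, differed by -0.16 ± 0.57 and the tetraspanin gene Cd81 by 0.18 ± 0.28. Cd4, the T cell coreceptor for class II, differed by -0.087 ± 0.41 and Lag3, an inhibitory receptor for class II, by -0.41 ± 0.63.

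**Figure D5:**
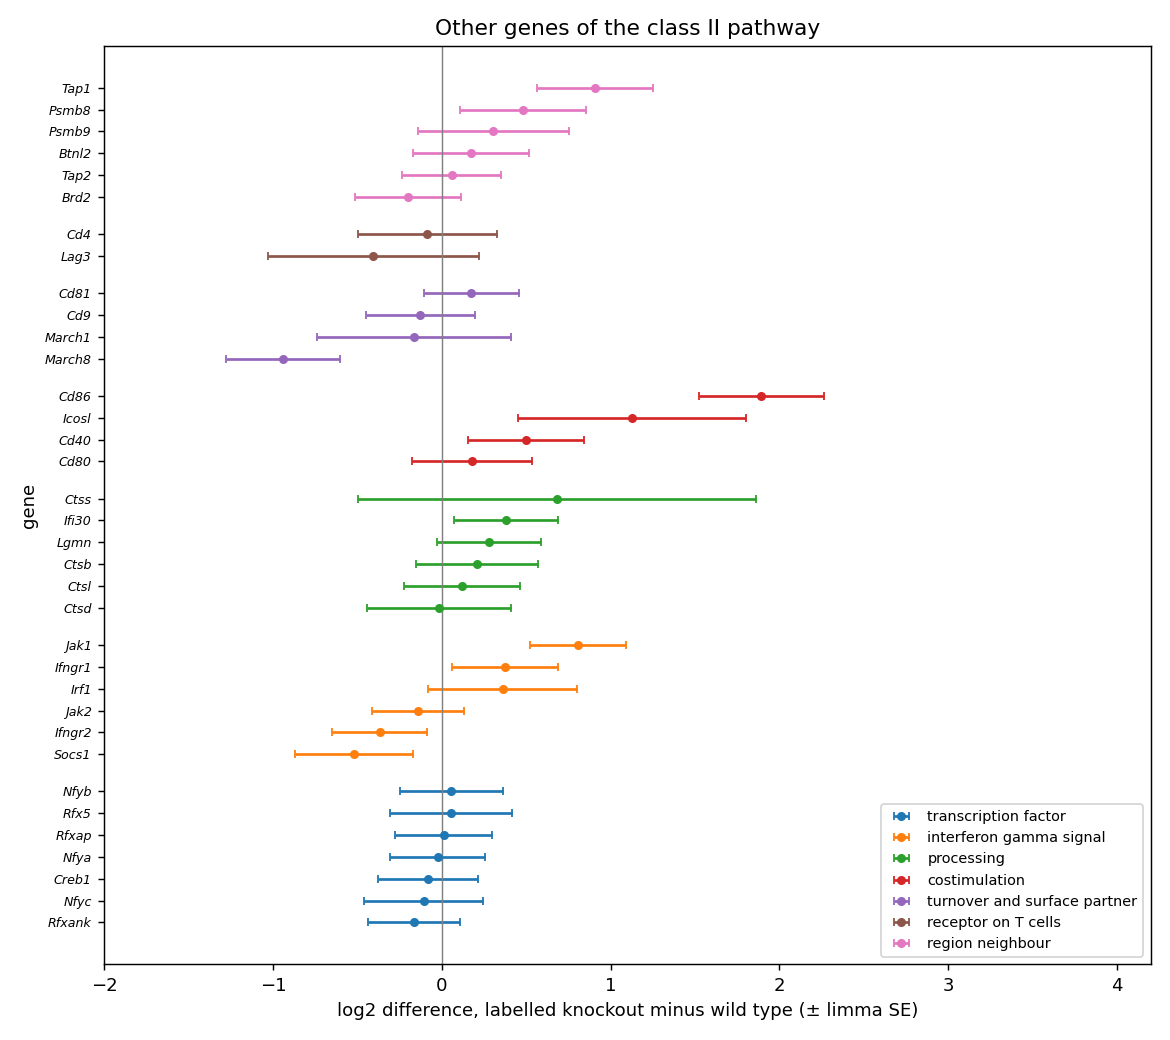
Differences of tested pathway genes and region neighbours that are not members, labelled knockout minus wild type in log2. Bars are 1 limma standard error. Genes are grouped and coloured by role, with 1 of the 36 not drawn. Each gene is shown by its brightest probe. The 7 factor genes of the X and Y boxes lie within 0.17 of 0, and Cd86 at 1.89 is the farthest from it.

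Markers of the cells that carry class II moved in part with these genes. Of 12 macrophage markers tested, 8 were higher and 1 lower on both knockout-labelled arrays, beside 16.1% and 13.7% of all genes, with a median difference of 1.39. Their summed signal, relative to the 75th percentile, was 173 and 348 on the wild-type-labelled arrays and 295 and 297 on the knockout-labelled pair, and most of each sum came from Itgam and Lyz2. Adgre1, a macrophage surface receptor gene, read 0.11 and 1.61 against 3.30 and 2.06, and Csf1r, the receptor for the macrophage growth factor, read 3.89 and 4.23 against 5.49 and 4.98. Cd68 and Lyz2, in contrast, stood lowest on the array labelled wild type 1, at 0.75 and 5.25, and highest on wild type 2, at 4.28 and 7.86.

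Of 8 dendritic cell markers tested, 3 were above in the knockout-labelled pair and 0 below, beside the same 16.1% and 13.7%, with a median of 0.91. Their sum was 132 and 103 against 80.5 and 141, and most of it came from Siglech. The 3 were Batf3 at 1.90 ± 0.33, Cd209a at 1.54 ± 0.48 and Clec9a at 1.07 ± 0.28. Clec9a lay close to background, at -4.33 and -4.35 on the wild-type-labelled arrays, and was well above it on 3 of the 4 arrays. Xcr1 was not well above background on any array. Zbtb46, a factor of conventional dendritic cells, differed by -0.58 ± 0.42. Itgax, also of this list, read -1.48 on wild type 1 against 3.65 on wild type 2 and 2.53 and 3.24 on the knockout-labelled pair. Its groups overlapped, and its difference was 1.80 ± 1.67.

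Of 6 B cell markers tested, 0 were higher and 1 was lower on both knockout-labelled arrays, near the 16.1% and 13.7% of all genes, with a median of -0.21, and their sum was 1.33 and 1.59 against 1.21 and 1.32. Blk was not well above background on any array. T cell markers were higher on both knockout-labelled arrays in 4 of 6, beside 16.1% of all genes, with a median of 0.62 and sums of 3.82 and 2.39 against 3.23 and 4.13, and Cd8a was not well above background. Lymph node stroma genes were tested in 3 of 5 and summed to 61.5 and 26.6 against 45.6 and 66.6. Ptprc, the gene of the leukocyte antigen CD45, read 2.68 and 2.59 against 2.58 and 2.67, a difference of -0.0097 ± 0.27. The part of these cells in the class II values was not tested.

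Markers of the vessel wall and of other tissue also differed between arrays. The 6 smooth muscle markers, led by Myocd at -0.93 ± 0.36, had a median of -0.46. Fibroblast and endothelial lists had medians of 0.29 and 0.50. White adipocyte markers summed to 252, 342 and 311 on the other arrays and to 2.26 on that labelled knockout 2, and skeletal muscle markers to 730 and 227 against 91.3 and 164, although Myh1 of that list differed the other way, by 3.63 ± 0.74. Their part was not tested. Without the array labelled knockout 2 the median difference over the 9 class II genes was 2.11, and without each of the others it lay between 1.64 and 2.06.

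Genes of other families followed the same profile across the 4 arrays. Likeness was measured as the root mean square distance between a gene's centred log2 values and the mean centred profile of H2-Aa, H2-Ab1, H2-Eb1 and Cd74. Among established names at or above the median level, the nearest were Fgfr1op2 at a distance of 0.17, the class I gene H2-Q5 at 0.18, Tsc22d4 at 0.21, the lipocalin gene Apod at 0.28 and the complement genes C1qa and C1qc at 0.29 and 0.31. Of the 4 genes that made the profile, Cd74 lay at 0.17, H2-Ab1 at 0.22, H2-Eb1 at 0.53 and H2-Aa at 0.59. Ciita, which took no part in it, lay at 0.24, H2-DMa at 0.36, H2-DMb1 at 0.45, H2-Oa at 0.58 and H2-Ob at 1.10. C1qc, a chain of the first complement component made by macrophages, read 2.30 and 2.69 on the wild-type-labelled arrays and 4.36 and 3.95 on the knockout-labelled pair. With 4 arrays a short distance is a description of shape.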

How the data were processed

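The members, the gene lists and the alternatives were chosen with earlier results of these data known. The values used are processed intensity signals that, per the file headers, come from Agilent Feature Extraction 12.0.3.1, with spatial and multiplicative detrending and surrogates for low values switched on and the separate background correction switched off, and not normalised between arrays, whereas the submitters' processing notes name version 10.7 of that program, and limma. The other columns used are flags per the file headers. The value table deposited by the authors holds log2 values, with 56605 of its 56732 entries matched to probes, column medians of 4.31 to 4.32 and a correlation of at least 0.999 across probes with the scanner values of the same array. Its scaling is not given in the sources used here. Probe positions are on mm9.

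Outlier spots were left out, repeated spots were averaged, and log2 signals were set relative to the 75th percentile of all non-control probes on the array. A probe was kept if 2 of the 4 arrays called it well above background (35102), and the brightest stood for a gene. The model (limma 3.58.1, lmFit and eBayes, R 4.3.3) covered all 22497 genes, two-sided, with Benjamini-Hochberg adjustment at 0.05. Differences of single probes other than the brightest come from the same values. A check on simulated data required only that the mean estimated difference lay near the one put in. It set no condition on the genes called, and nothing above rests on it. The named genes were the 9 members, Msr1, pathway genes with a gap of at least 1 and up to 3 more of each role by size of difference, and the 6 genes nearest in profile. Nfyb, Brd2, Tap2 and the marker genes named were chosen after their values were seen. Some genes that the rule names are not reported here. Alternatives were quantile and median scaling, normexp with an offset of 50, other filters, outliers kept, probes averaged per gene, the deposited values, an intensity trend, signal level as a block and each array left out. Plotting used Python 3.11.15 and matplotlib 3.10.9. The number of arrays limits the precision.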

Additional observations from a re-analysis of the deposited data

How the results depend on the processing

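No paired analysis was possible because the labels give the groups no shared replicate number. Signal level as a block, which is no label of the samples, left the count of genes passing in limma at 0, with 2814 at an unadjusted p under 0.05. The 9 class II genes kept a positive difference under every alternative that gave them a value, and their median ran from 1.64 to 2.11. H2-Oa and H2-Ob gave no value where all 4 arrays had to be above background. The count of genes passing in limma, 0 as reported, was 8 under quantile scaling, 7 under median scaling, 21 under normexp background correction, 8 with no filter on dim probes, 8 with the deposited values and 5 with an intensity trend, and leaving out 1 array gave 0 to 371. The pathway count was 0, and 0 to 1 with an array left out. The cause was not tested. Signals near background limit the values of H2-Oa and H2-Ob, and spread between replicates also limits H2-Ob. The median of all genes moved by less than 0.1 in log2 under every scaling.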
